A study of Mus musculus with 2 samples.

Results

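The GIMAP genes (GTPases of the immunity-associated protein family) were examined in murine effector CD8+ T cells compared after 2 rounds and after 1 round of stimulation in vitro. Members were the probes whose platform annotation gives a single gene symbol that begins with Gimap and that had a value on both arrays, and 3 of the 21427 probes with both values met this rule, 1 each for Gimap4, Gimap1 and Gimap3, out of 14150 genes measured in this way. The rule itself uses no measured value. The RefSeq table of the mouse lists 8 Gimap genes, and the other 5, Gimap5, Gimap6, Gimap7, Gimap8 and Gimap9, had no named probe here.

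The source was a pmel transgenic mouse, in which a transgene gives the CD8+ T cells a receptor that recognises gp100, a protein of melanocytes and melanoma, so both stages carry the same transgene. Total RNA of cells after 2 stimulations was in channel 2, and total RNA of cells after 1 stimulation was in channel 1, of the same 2-colour microarray. There were 2 such arrays, the second named a repeat of the first. The sources used here do not say whether RNA of another culture went onto the repeat, or give the stimulating agent and the age of the mice. Therefore errors and p-values measure only the spread between these arrays, which may be technical.

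GIMAP proteins bind guanine nucleotides and are found mainly in lymphocytes, where several sit on the membranes of organelles. The family is known for its part in keeping resting T cells alive: rats and mice without working Gimap5 lose most of their peripheral T cells. Single members act in different ways. In mice Gimap1 is needed for the survival of mature T and B cells, Gimap4 hastens the late steps of programmed death in T cells, and Gimap3, the nearest relative of Gimap5, influences which mitochondrial DNA is kept in blood cells.

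All 8 genes lie on chromosome 6 in a single block from 48647186 to 48770851 (GRCm38.p6), 124 kb long. Gimap4 (Entrez 107526) spans 48684578 to 48692062 and Gimap1 (Entrez 16205) spans 48739047 to 48743795, both on the plus strand, while Gimap3 (Entrez 83408) spans 48764464 to 48770851 on the minus strand. For 2 of the 3 probes, those of Gimap1 and Gimap3, the annotated transcript is a RefSeq transcript of the same gene, and for all 3 the Entrez ID has the same symbol in RefSeq. Older names can mislead, since RefSeq lists Gimap5 among the former names of Gimap3. The probe sequences were not used here, so the exon or untranslated region each probe lies in is not given, and the specificity of each probe among these related genes was not tested.

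The starts of the 3 genes are shown because Gimap4 and Gimap1 lay on one side of the ratio and Gimap3 on the other. Each sequence runs from 250 bases before to 50 bases after the annotated start, 5′ to 3′ on the gene's own strand (RefSeq, GRCm38.p6), at chr6:48684328-48684627 for Gimap4, chr6:48738797-48739096 for Gimap1 and chr6:48770802-48771101 for Gimap3. Capitals mark every match, on either strand, to 1 of 9 short motifs.
Gimap4: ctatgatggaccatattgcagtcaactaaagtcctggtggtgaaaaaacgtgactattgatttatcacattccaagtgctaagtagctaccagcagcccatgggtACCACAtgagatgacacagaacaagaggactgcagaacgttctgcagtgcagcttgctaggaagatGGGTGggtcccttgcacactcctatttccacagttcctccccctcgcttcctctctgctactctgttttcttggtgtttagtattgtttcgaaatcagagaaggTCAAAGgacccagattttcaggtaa
Gimap1: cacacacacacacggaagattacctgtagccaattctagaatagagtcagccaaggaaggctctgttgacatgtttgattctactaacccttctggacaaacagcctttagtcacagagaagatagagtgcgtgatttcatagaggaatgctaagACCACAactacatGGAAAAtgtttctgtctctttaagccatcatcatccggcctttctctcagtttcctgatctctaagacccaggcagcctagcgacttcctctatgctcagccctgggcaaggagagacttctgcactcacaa
Gimap3: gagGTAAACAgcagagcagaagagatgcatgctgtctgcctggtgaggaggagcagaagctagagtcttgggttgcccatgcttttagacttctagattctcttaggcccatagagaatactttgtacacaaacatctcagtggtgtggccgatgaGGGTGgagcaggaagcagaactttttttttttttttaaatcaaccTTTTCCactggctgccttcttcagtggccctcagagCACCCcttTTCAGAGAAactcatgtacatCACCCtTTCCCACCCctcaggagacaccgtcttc

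The motifs were TGTGGT for RUNX factors, GTAAACA for FOXO factors, TTCNNNGAA for STAT5, CTTTGA for TCF and LEF factors, TGGGAA as the shared core of RBPJ and Ikaros, GGAAAA as the core of NFAT sites, CACCC for KLF factors, AGATAA for GATA factors and TATAAA for the TATA box. The RUNX letters were in the windows of Gimap4 and Gimap1 and not in that of Gimap3, and 16.8% of the 32851 promoter windows of this length hold them. The Gimap3 window held the FOXO letters (3.65% of all windows), the STAT5 letters (8.30%) and the RBPJ and Ikaros core (25.6%), none of which was in the other two. The TCF and LEF letters were found in Gimap4 alone (16.0% of all windows). The NFAT core was in Gimap1 and Gimap3 (23.4%). The KLF letters occurred at 4 places in Gimap3 and 1 in Gimap4, and 1 of the Gimap3 matches overlaps the RBPJ and Ikaros core. At least 1 KLF match is in 57.5% of all windows, and the share with 4 was not counted. The GATA and TATA letters were in none of the 3 windows, against 11.2% and 13.6% of all windows. These are matches of letters only.

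Each value is a signed ratio of the 2 channels of a probe on a log scale, taken as log2. The numerator is not stated. Titles and channels name the cells of 1 stimulation before those of 2, but this order does not fix which stage is the numerator. Read as 1 over 2, negative values stand for more RNA after 2 stimulations and positive values for more RNA after 1 stimulation. The opposite order would exchange the sides. That 2 genes lie on different sides does not depend on this. The deposited values were centred near 0, with medians of 0.01 on array 1 and 0.02 on array 2, and array 2 had the wider spread over probes (SD of 0.452, and 0.378 on array 1). No spot intensity or level was used here, so the label of the cells could not be checked by the levels of T cell genes, and precision is limited by the number of arrays.

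Gimap4 read 0.77 on array 1 and 1.10 on array 2. Both arrays were positive and differed by 0.33, the smallest gap of the 3 members, though most probes of the table had a smaller one. The mean log2 ratio was 0.935 ± 0.233 (SD, n = 2), a 1.91-fold difference between the stages. limma's 95% confidence interval ran from 0.51 to 1.36, with an adjusted p of 0.171 and an unadjusted p of 0.00292.

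Gimap1 read 0.41 on array 1 and 1.26 on array 2. It was on the same side as Gimap4 on both arrays, nearer 0 than Gimap4 on array 1 and farther from 0 on array 2. Its mean log2 ratio was 0.835 ± 0.601 (SD, n = 2), a 1.78-fold difference. The limma interval ran from 0.18 to 1.49, with an adjusted p of 0.268 and an unadjusted p of 0.0227.

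Gimap3 read -0.63 on array 1 and -1.41 on array 2. It was negative on both arrays, opposite to the other members. Its mean log2 ratio was -1.02 ± 0.55 (SD, n = 2), a 2.03-fold difference and the farthest of the 3 from 0. The limma interval ran from -1.64 to -0.40, with an adjusted p of 0.212 and an unadjusted p of 0.00907.

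**Figure D1:**
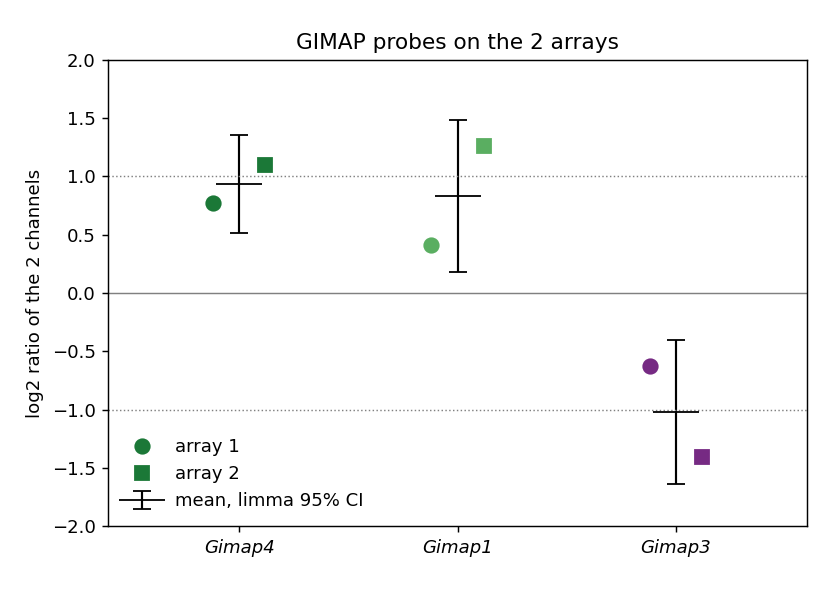
Log2 ratio of the 2 channels (vertical axis) for the 3 GIMAP probes, with array 1 as circles, array 2 as squares, the mean as a bar and limma's 95% confidence interval as whiskers; dotted lines mark a 2-fold difference at 1 and -1. Gimap4 (0.77 and 1.10) and Gimap1 (0.41 and 1.26) were above 0 on both arrays and Gimap3 (-0.63 and -1.41) below 0 on both.

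No GIMAP probe passed limma's test at an adjusted p of 0.05, where 0 of all 21427 probes (0%) passed and the smallest adjusted p was 0.162. At an unadjusted p under 0.05 all 3 GIMAP probes passed, against 3186 probes or 14.9% of the table. This rests on limma's moderated spread: on each probe's own spread the unadjusted p was 0.111 for Gimap4, 0.300 for Gimap1 and 0.232 for Gimap3, and all 3 limma intervals then held 0. Positive on both arrays were 2 of the 3, against 33% of all probes, and negative on both was 1, against 29.3%. None was at least 2-fold on both arrays, a size reached by 0.854% of all probes. On array 2 alone all 3 were at least 2-fold (4.68% of all probes), and on array 1 alone none was (2.11%). At least 1.5-fold on both arrays were Gimap4 and Gimap3, as were 4.11% of all probes. The median of the 3 means was 0.835, with 0.41 on array 1 and 1.10 on array 2, beside 0.005 over all probes. With 2 members on one side and 1 on the other, this median does not describe Gimap3.

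Each member was placed among the 21427 probes. As far or farther out on the same side on both arrays were 105 probes for Gimap4 (0.490%), 148 for Gimap1 (0.691%) and 108 for Gimap3 (0.504%), each count including the member itself. The members therefore stood in the outer edge of the cloud of probes. The 2 arrays differed by 0.33 for Gimap4, a gap met or exceeded by 37.4% of all probes. For Gimap1 they differed by 0.85 (5.04% of probes as wide) and for Gimap3 by -0.78 (6.58%), so the size of these 2 ratios was less well repeated than that of Gimap4. Across all probes the SD of the difference between arrays was 0.422.

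**Figure D2:**
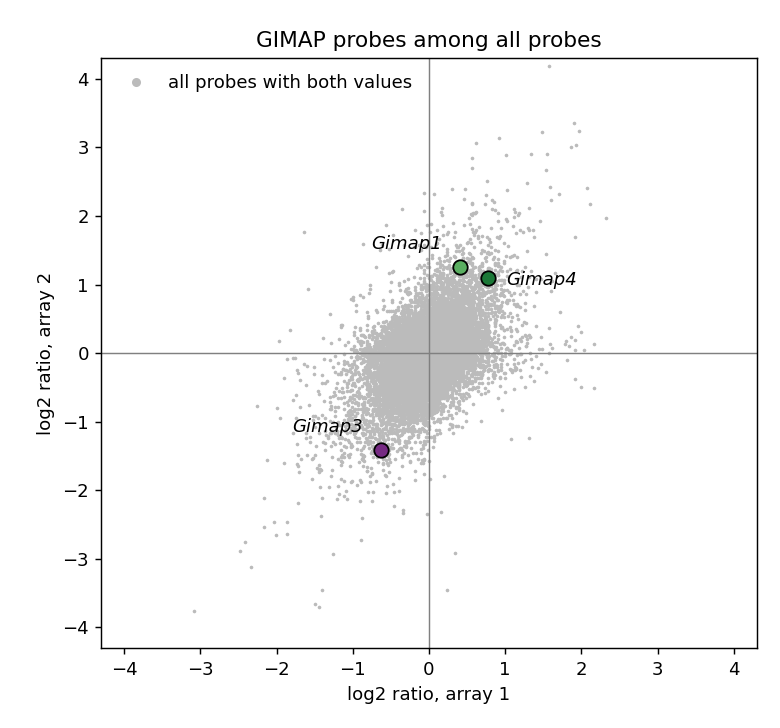
Log2 ratio on array 2 (vertical axis) against that on array 1 (horizontal axis) for the 21427 probes with both values (grey), with the 3 GIMAP probes in colour. Gimap4 and Gimap1 lie in the upper right and Gimap3 in the lower left, near the edge of the grey cloud.

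The members were set against each other within each array. Gimap4 minus Gimap3 was 1.40 on array 1 and 2.51 on array 2, a mean of 1.96 ± 0.78 (SD, n = 2). Gimap1 minus Gimap3 was 1.04 and 2.67, a mean of 1.86 ± 1.15 (SD, n = 2). Both differences had the same sign on both arrays, so the sense of the ratio, whichever it is, was not shared by the 3 genes. Gimap4 minus Gimap1 was 0.36 and -0.16, a mean of 0.10 ± 0.37 (SD, n = 2), which changed sign between arrays and was smaller than their spread. These 3 differences are given as a description and were not tested.

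The 3 genes are close neighbours on the chromosome. The start of Gimap1 lies 54.5 kb from that of Gimap4, and the gap between Gimap1 and Gimap3 is 20.7 kb and holds Gimap5. Within 300 kb on either side of the block, 10 other genes had a named probe with both values, 9 of them protein-coding. These genes, chosen by position, had mean log2 ratios between -0.415 and 0.295 and single values between -0.50 and 0.41. The nearest on the left, Rarres2, which encodes the chemoattractant chemerin, read -0.45 and -0.38 on the 2 arrays. The nearest on the right, Tmem176b, a membrane protein gene, read -0.03 and 0.24. All 3 GIMAP means thus lay outside the range of the means of the measured genes around them.

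**Figure D3:**
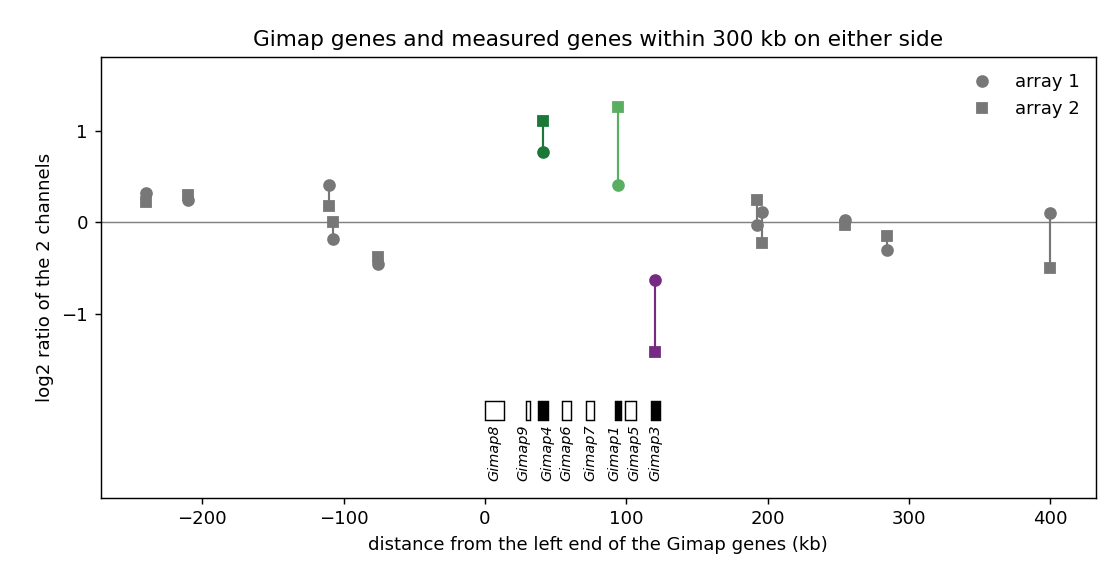
Log2 ratios of the measured genes (vertical axis; circles array 1, squares array 2) by distance in kb from the left end of the Gimap genes (horizontal axis), with boxes below for the 8 Gimap genes, black where a named probe exists. The coloured points, Gimap4, Gimap1 and Gimap3 from left to right, have means of 0.935, 0.835 and -1.02, while the means of the grey genes lie between -0.415 and 0.295.

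Probes with neighbouring numbers were compared as well. The probe 2 numbers before that of Gimap3 is annotated to the granzyme gene Gzme and read -0.91 and -2.15, and the probe 2 numbers after it, annotated to Vcpip1, read -0.33 and -1.45. The probes directly beside Gimap3 read 0.08 and 0.30 (Cpne3) and 0.12 and 0.55 (unnamed). Gimap3 thus had the same sign as the probes 2 numbers away and the opposite sign to those directly beside it. For Gimap4, the probe 2 numbers after it is annotated to the granzyme gene Gzmd and read -0.89 and -2.72, on the opposite side. The 4 probes nearest in number to Gimap1 had means between -0.40 and 0.455. Over the whole table, the means of probes 2 numbers apart correlated with Pearson's r = 0.150 over 20823 pairs, and those at each other distance from 1 to 10 with r between 0.0424 and 0.109. Probes close in number may share a place in the printing of the array and are not independent, and the part of this order in the Gimap3 value was not tested.

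Genes with the pattern most like a member were found by the Euclidean distance over the 2 arrays, with 1 mean value per gene for 14147 genes outside the family. For Gimap3, the member farthest from 0, the nearest were Ran at 0.028, Nudcd2 at 0.041, Snrpd1 at 0.051, Aen at 0.057 and Pmaip1 at 0.071. Pmaip1, which encodes the death-promoting protein NOXA, read -0.58 and -1.36, and Ran, a GTPase of nuclear transport, read -0.61 and -1.39. The same measure was applied to the other members after their values were seen. It gave Elf1 (0.78 and 1.10), an ETS family transcription factor gene, and Fas (0.79 and 1.11), a death receptor gene, as nearest to Gimap4. For Gimap1 it gave Arhgef3, a guanine nucleotide exchange factor gene, at 0.40 and 1.26. Within a distance of 0.1 there were 14 genes for Gimap3, 8 for Gimap4 and 8 for Gimap1. Likeness over 2 arrays says only that the ratios were alike in size.

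The family was then set beside companion lists of genes, described by counts and medians over 14150 genes. These lists were chosen with earlier results of these data known, so lying on the same side as a list is a description and no independent support. Of all genes, 29.6% were positive on both arrays and 33.6% negative on both, and their median was -0.02. In the IL-7 receptor axis, the cytokine path that keeps resting T cells alive, 5 of 8 measured genes were positive on both arrays, 3 were negative on both, and the median was 0.312 (0.197 on array 1 and 0.367 on array 2). At least 2-fold on both arrays were Il7r, the receptor chain, with 1.58 and 4.19, and on the negative side Cish, a feedback inhibitor of cytokine signalling, with -1.16 and -1.84. Over all genes 0.233% reached that size on the positive and 0.721% on the negative side. The transcription factor gene Foxo1 read 0.39 and 0.69 and the kinase gene Jak1 0.51 and 0.64, on the side of Gimap4 and Gimap1. Besides Cish, the genes negative on both arrays were Socs1, with -0.72 and -0.30, and Stat5a, with -0.04 and -0.02.

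In the list of naive T cell homing and quiescence, 8 of 10 measured genes were positive on both arrays, 2 were negative on both, and the median was 0.52. Ccr7, the receptor that guides T cells into lymph nodes, was the member at least 2-fold on both arrays, with 1.28 and 2.48. S1pr1, which lets T cells leave lymph nodes, read 0.27 and 0.39 and its regulator Klf2 0.42 and 0.22. The list's median was 0.495 on array 1 and 0.655 on array 2. Gimap4 was farther out than this median on both arrays and Gimap1 on array 2 only, both on the side of most of these genes, and Gimap3 was on the opposite side.

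The BCL2 family, whose members decide whether mitochondria release death signals, held 14 measured genes. Of these, 7 read negative and 3 positive on both arrays. The median was -0.285, with -0.06 on array 1 and -0.52 on array 2, so most of its distance from 0 came from array 2. The death-promoting genes Bid, with -3.08 and -3.76, and Bad, with -2.16 and -2.12, were at least 2-fold on both arrays. Of the 5 measured protective genes, Bcl2 read -0.26 and -1.03 and Bcl2l2 -0.69 and -1.11, negative on both arrays. Bcl2l1 read 0.04 and -0.62 and Bcl2a1a 0.08 and -0.42, changing sign between arrays. Mcl1 alone was positive on both, with 0.57 and 0.86. Gimap3, with -0.63 and -1.41, stood on the side of the death-promoting Bid and Bad as well as of Bcl2 and Bcl2l2. Gimap4 and Gimap1 stood on that of Mcl1 and of the death-promoting Bok (0.22 and 0.40) and Bmf (0.05 and 0.08).

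The medians of other GTPase families lay on both sides of 0. Their counts stand beside 29.6% of all genes positive on both arrays and 33.6% negative on both, and were not tested against these shares. Of 10 measured interferon-inducible GTPase genes, which act against intracellular microbes, 6 were positive on both arrays and 1 was negative on both. Their median was 0.548 (0.29 on array 1 and 0.855 on array 2), and Tgtp1 read 1.70 and 2.32. Of 8 measured septins, cytoskeletal GTPases whose fold resembles that of GIMAP proteins, 0 were positive on both arrays, 4 were negative on both, and the median was -0.238, with -0.01 on array 1 and -0.37 on array 2. Septin2 read -1.35 and -1.20. Of 13 small GTPase genes 3 were positive on both and 6 negative on both, with a median of -0.155 (-0.20 on array 1 and -0.10 on array 2), and Rras2, a relative of the Ras genes, read -1.09 and -2.01. The Notch pathway, which acts in T cell development and is not a GTPase family, was listed as well. It had 2 of 13 genes positive on both and 7 negative on both, with a median of -0.115 (-0.21 on array 1 and -0.02 on array 2). None of its genes was at least 2-fold on both arrays. Over all genes 0.233% reached that size on the positive and 0.721% on the negative side, so this says little about so short a list.

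**Figure D4:**
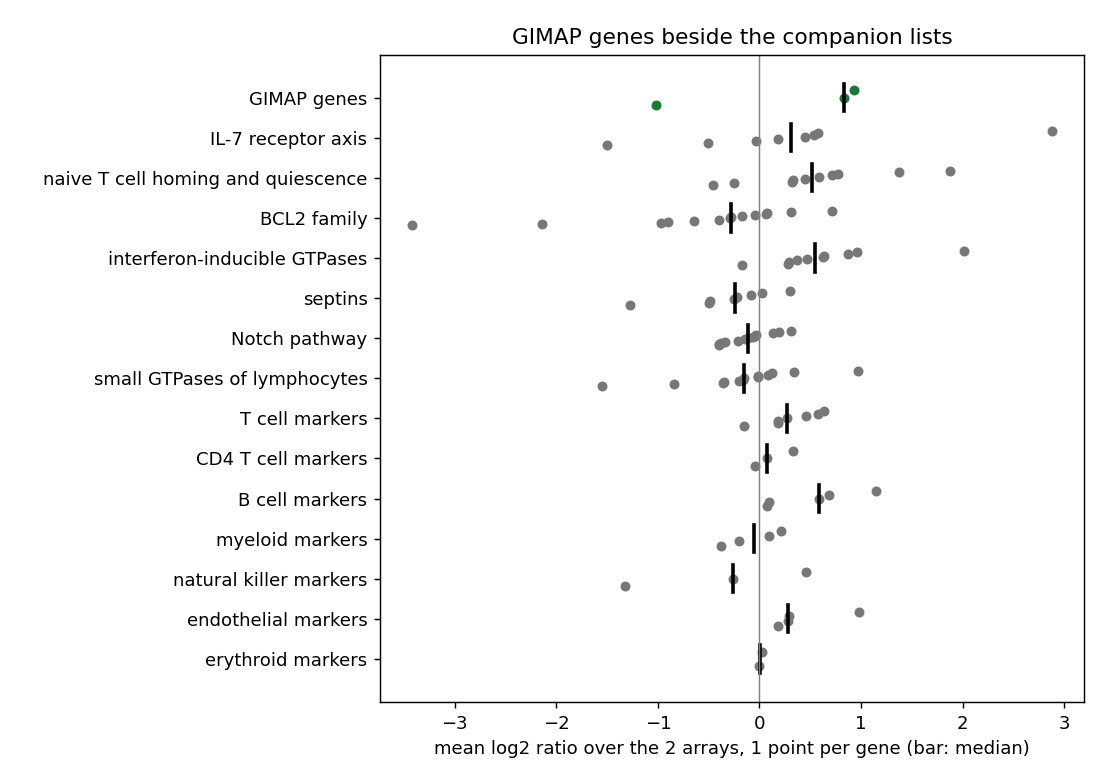
Mean log2 ratio over both arrays (horizontal axis), 1 point per gene, for the GIMAP genes (green) and the companion and marker lists (grey), with the median of each list as a black bar. The median was 0.835 for the GIMAP genes, 0.548 for the interferon-inducible GTPases, 0.52 for naive T cell homing and -0.285 for the BCL2 family. The GIMAP median is the mean of Gimap1, the middle of 3 genes, and does not describe Gimap3 at -1.02.

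Gimap genes are also expressed by B cells and some by endothelial cells, so markers of other cell types are given beside them. Of 5 measured B cell markers, 4 were positive on both arrays and 0 negative on both, with means from 0.075 to 1.15 and a median of 0.585 (0.30 on array 1 and 0.87 on array 2). Cd79b, a chain of the B cell receptor complex, read 0.67 and 1.62, while Pax5, a defining B cell factor, read 0.21 and -0.06 and Ms4a1, encoding CD20, 0.11 and 0.08. All 4 endothelial markers were positive on both arrays, against 29.6% of all genes. Their means ran from 0.185 to 0.985, with a median of 0.285. The highest was Pecam1, with 0.23 and 1.74, while Cdh5, Kdr and Tek had means of 0.28, 0.185 and 0.29. Of 7 T cell markers 5 were positive on both arrays, 0 were negative on both, and the median was 0.275 (0.13 on array 1 and 0.45 on array 2). Cd3e read -0.09 and 0.45, and the 2 Cd8a probes 0.03 and 0.74, and 0.71 and 1.06. The medians were -0.055 for 4 myeloid, -0.26 for 3 natural killer, 0.07 for 3 CD4 T cell and 0.01 for 2 erythroid markers. The natural killer markers differed widely: Klrb1c read -0.77 and -1.88, Ncr1 -0.27 and -0.25 and Klra8 0.86 and 0.06. On the single arrays the CD4 T cell median was -0.11 and 0.15, the erythroid median -0.225 and 0.245 and the myeloid median -0.065 and -0.0275. In such bulk samples fewer cells of a type and less RNA per cell cannot be told apart. Summed levels of these markers cannot be given from ratios, and their part in the Gimap4 and Gimap1 values was not tested.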

How the data were processed

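The authors deposited 1 signed value per probe and array for 2 two-channel arrays, used here as log2 ratios. Base 2, the direction of the ratio, the dyes, scanner, background correction and normalization are not given in the sources used here. Read as natural logs, the mean differences would be 2.55-fold for Gimap4, 2.30-fold for Gimap1 and 2.77-fold for Gimap3.

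Of 21919 probes, 340 had no value on array 1 and 300 none on array 2. Symbols came from the platform annotation (15998 probes with 1, 288 with several, 5633 with none). Both arrays form 1 group. An intercept against 0 (two-sided) was fitted to 21427 probes with limma 3.58.1 in R 4.3.3, with Benjamini-Hochberg adjustment over all of them. The residual degrees of freedom are 1 per probe, to which limma's prior added 3.43. Probes of a gene were averaged for the lists.

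Named were every Gimap probe, list members at least 2-fold on both arrays, a fixed set of T cell genes and the 5 genes nearest to the farthest member. Other genes named as examples, the positional neighbours and the motifs were chosen after values were seen. The members and lists were chosen with earlier results of these data known. Promoters and gene positions came from RefSeq tables of GRCm38.p6. No sequence beyond the promoter windows was used.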

Additional observations from a re-analysis of the deposited data

How the results depend on the processing

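Each GIMAP ratio kept its sign and stayed above an adjusted p of 0.05 under median centring, quantile normalization, averaging probes per gene, a robust or no prior and keeping probes with a single value. Over these settings the mean ranged from 0.92 to 0.935 for Gimap4, from 0.758 to 0.835 for Gimap1 and from -1.035 to -0.99 for Gimap3, and the lowest adjusted p was 0.112, 0.212 and 0.143 in that order. Without replicate 1 or without replicate 2 the values were 1.10 and 0.77 for Gimap4, 1.26 and 0.41 for Gimap1 and -1.41 and -0.63 for Gimap3, with no test, and the family median was 1.10 and 0.41. The count at least 2-fold on both arrays, 0, was 2 at 1.5-fold, 1 (Gimap4) if the values are natural logs, and 3 without replicate 1 and 0 without replicate 2, which leave a single array each. limma without moderation called 241 of 21420 probes, none a GIMAP probe and all 241 with equal values on both arrays. Every moderated setting called 0. The fit as reported had 3186 probes at an unadjusted p under 0.05. At an adjusted p of 0.10 the fit as reported called 0 probes, quantile normalization 17 and the robust prior 173, none a GIMAP probe. No paired analysis was possible because the arrays form 1 group, and each ratio already sets both stages against each other within an array. Signal over background is unknown, and each gene rests on 1 probe.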
